A study of Mus musculus with 16 samples.

Results

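The lamin A/C chromatin immunoprecipitation (ChIP-seq) peak lists of unstressed Des+/+ and unstressed Des-/- mouse cardiomyocytes were compared to ask how the loss of desmin alters the genomic sites recovered with an antibody to lamin A/C at rest. Des+/+ mice carry the intact desmin gene and Des-/- mice lack desmin in every tissue from conception, so the comparison is between lifelong genotypes. In the paper's methods both names stand for mice homozygous for a GFP transgene under a cardiac myosin promoter. That transgenic line was backcrossed to a wild-type strain and then crossed with desmin-null mice of the same strain. Animals were taken regardless of sex, and the sex of the pooled mice is not given. Both groups were 3 months old, neither had undergone the swimming exercise used elsewhere in the study, and the heart muscle cells were harvested directly after enzymatic perfusion of the heart. Chromatin was pooled from several mice for each group and gave 1 library per genotype, so no value below has a replicate check. The differences are therefore described and not tested. The cells were checked against the acetylated histone H3 (H3K27Ac, which marks promoters and enhancers in use) lists of the same groups, in which 11 of 12 cardiomyocyte marker genes carried a peak in both genotypes, Nppa being the exception. Of the other marker lists, 9 of 10 endothelial genes carried a peak in both genotypes, 1 of 10 fibroblast genes in Des+/+ and 3 of 10 in Des-/-, and 0 of 10 leukocyte genes in either, so acetylated endothelial genes were recovered beside those of cardiomyocytes.

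The Des+/+ list held 188 peaks and the Des-/- list 831. Peaks with an input height of 10 reads or more were removed (4 and 29), since there the unprecipitated chromatin was itself highly covered. Peaks assigned to Gata4, Mef2c and Tbx5, which the study also used as reprogramming factors, or to Neil2, the neighbour of Gata4, were removed too (8 and 17), leaving 176 Des+/+ and 785 Des-/- peaks. These 961 peaks are a part of 2190 lamin A/C peaks in 4 lists and of 56149 peaks in all 8 lists of the series. The peaks removed for their input were 22 to 203 reads high over inputs of 10 to 156 in Des+/+, and 23 to 231 reads high over inputs of 10 to 181 in Des-/-. Just inside the limit, at an input of 9, lay 2 Des+/+ peaks of height 20 and 6 Des-/- peaks of height 20 to 26. Just outside it, at an input of 10, lay 1 Des+/+ peak of height 22 and 2 Des-/- peaks of height 23 and 29.

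Lamins A and C are intermediate filament proteins made from the gene Lmna. They form, with the B-type lamins, the meshwork under the inner nuclear membrane, and a fraction of them is found in the nuclear interior. Chromatin that contacts the lamina forms lamina-associated domains, long stretches that are usually poor in active genes and rich in silent, tissue-specific gene families. Desmin is the intermediate filament protein of muscle. It links the contractile lattice to mitochondria, cell junctions and the nuclear envelope, where the LINC complex of nesprins and SUN proteins bridges the cytoskeleton to the lamina.

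Much of the Des-/- list lay in arrays of repeated sequence, so a few peak windows are printed here beside the closest copy of each within 1 Mb. Each is a window of 130 bp around the peak summit, read from the reference genome in the build of the lists (GRCm38), and the capitals mark bases inside a run of 31 bases (31-mer) shared by the peak and its copy. Each peak shown here was the highest of its array with 50 to 99% of its 31-mers found again within 1 Mb. A copy was thus ensured by the choice, and these pairs do not show how alike the arrays are in general. The first is between genes on chromosome 5, nearest to Gm21190, at chr5:15512275-15512404 on the plus strand (height 21, input 9), with its copy at chr5:15637812-15637941 on the minus strand. The second lies in an intron of the vomeronasal receptor pseudogene Vmn2r-ps36, nearest to Vmn2r31, at chr7:7425149-7425278 (height 10, input 2), with its copy at chr7:8145330-8145459, both on the plus strand. The last pair is between genes of the Prl2c family of placental prolactin-like hormones at chr13:12937854-12937983 (height 11, input 3) and at chr13:12729628-12729757, both on the plus strand.
Gm21190 peak: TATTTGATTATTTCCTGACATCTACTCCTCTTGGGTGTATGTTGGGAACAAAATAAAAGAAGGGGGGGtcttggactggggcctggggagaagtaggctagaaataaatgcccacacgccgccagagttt
Gm21190 copy: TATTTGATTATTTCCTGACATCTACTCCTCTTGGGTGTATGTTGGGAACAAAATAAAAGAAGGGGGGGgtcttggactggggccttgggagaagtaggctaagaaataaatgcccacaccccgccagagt
Vmn2r31 peak: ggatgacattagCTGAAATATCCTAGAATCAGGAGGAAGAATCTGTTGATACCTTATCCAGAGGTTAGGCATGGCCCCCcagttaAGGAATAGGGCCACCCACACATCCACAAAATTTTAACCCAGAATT
Vmn2r31 copy: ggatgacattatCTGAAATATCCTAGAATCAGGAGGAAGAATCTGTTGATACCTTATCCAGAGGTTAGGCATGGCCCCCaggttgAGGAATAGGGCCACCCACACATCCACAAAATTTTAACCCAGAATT
Prl2c2 peak: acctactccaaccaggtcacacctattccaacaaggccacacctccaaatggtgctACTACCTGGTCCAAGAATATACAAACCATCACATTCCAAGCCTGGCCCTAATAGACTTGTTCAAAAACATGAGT
Prl2c2 copy: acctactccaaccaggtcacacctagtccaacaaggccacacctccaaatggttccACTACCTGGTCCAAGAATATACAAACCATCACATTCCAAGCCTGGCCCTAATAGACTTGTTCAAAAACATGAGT
Compared position by position without gaps, the Gm21190 pair was 70.8% identical (126 kb apart), the Vmn2r31 pair 96.9% (720 kb apart) and the Prl2c2 pair 97.7% (208 kb apart). The Gm21190 copy has an extra base just after the capitals, which puts the later bases out of step and lowers its value. Neither list held a peak on any of these 3 copies. A further pair picked by the same rule, in the immunoglobulin heavy chain array on chromosome 12, was 83.1% identical and is not printed. A read that fits several copies equally well is placed at 1 of them by the aligner, so a peak inside such an array marks the array more surely than the copy.

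The Des-/- list was longer in every class of height. There were 4.46 Des-/- peaks for each Des+/+ peak, covering 219.3 kb against 40.3 kb, and the median width was 215 bp against 200 bp. Most peaks were near the lowest height in the lists, which was 8 overlapping reads. In Des+/+ 104 peaks (59.1%) were exactly 8 reads high, and in Des-/- 356 (45.4%). The median height was 8 reads in Des+/+ and 9 in Des-/-, with maxima of 83 and 92. From 16 to 19 reads there were 0 Des+/+ and 56 Des-/- peaks, and at 20 reads or more there were 8 and 22. The input under the peaks was also higher in Des-/-, with a mean of 2.35 reads against 1.68. The depth of each library is given only as 1 rounded figure common to all samples, in the methods, so a difference in sequencing depth cannot be told apart from a difference in the number of sites. The antibody label of each sample also carries a catalogue number of its own, rising by 1 from sample to sample, although the study's methods name a single lamin A/C antibody. Whether the antibody differed between the libraries was not tested.

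The false discovery rate of the lists behaved as if set within each chromosome, and the largest p-value kept therefore differed between chromosomes. In Des+/+ it ran from 1e-08 on chromosome 11 to 0.000509 on chromosome 5, and on 7 chromosomes (4, 8, 11, 13, 15, 19 and Y) it was under 1e-05. In Des-/- the lowest was 1.61e-05. The largest p-value kept need not be the limit that was applied, since chromosomes 11, 15 and 19 held only 2 Des+/+ peaks each. On those 7 chromosomes there were 33 Des+/+ and 230 Des-/- peaks, 6.97 for each, and on the other 13 without X 143 and 490, 3.43 for each. The 7 were picked by the Des+/+ list itself. On chromosomes 4, 8 and 13 among them, 50, 37 and 51 Des-/- peaks lay in dense groups described below. Other dense groups lay among the 13, and the part of the groups in this contrast was not tested. With both lists held to the p-value of a peak 8 reads high over an input of 1, a limit chosen after the values were seen, 104 Des+/+ and 296 Des-/- peaks were left, 2.85 for each. The excess of Des-/- peaks was thus smaller, and still present, with this limit of 1.13e-06 set on both lists. The largest Des+/+ p-value kept was lower than that on chromosome 11 (1e-08) and on Y (2.07e-07). On X there was no Des+/+ peak to show it, and 24 of the 296 Des-/- peaks lay there. Equal limits on these chromosomes are therefore not shown.

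Peak density varied between chromosomes in both lists. Over the whole genome there were 6.46 Des+/+ and 28.8 Des-/- peaks per 100 Mb. Des+/+ densities ran from 0 on X to 10.5 on chromosome 5, and Des-/- densities from 6.51 on chromosome 19 to 60.8. Des-/- was most dense on chromosome 12 (60.8 per 100 Mb, 73 peaks), chromosome 5 (60.6, 92 peaks) and chromosome 13 (54.8, 66 peaks), where Des+/+ had 9.99, 10.5 and 4.98. On chromosome 10 the lists were nearly equal, with 13 Des+/+ and 12 Des-/- peaks, and that was the only chromosome on which Des+/+ had more. Chromosome 9 (5 and 10 peaks) and chromosome 19 (2 and 4 peaks) had few in either. The high chromosomes owed their density to 12 dense groups described below. Outside these the density was 5.25 in Des+/+ and 13.4 in Des-/-, and it fell to 11.7 on chromosome 12, 15.8 on chromosome 5 and 12.5 on chromosome 13.

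**Figure D1:**
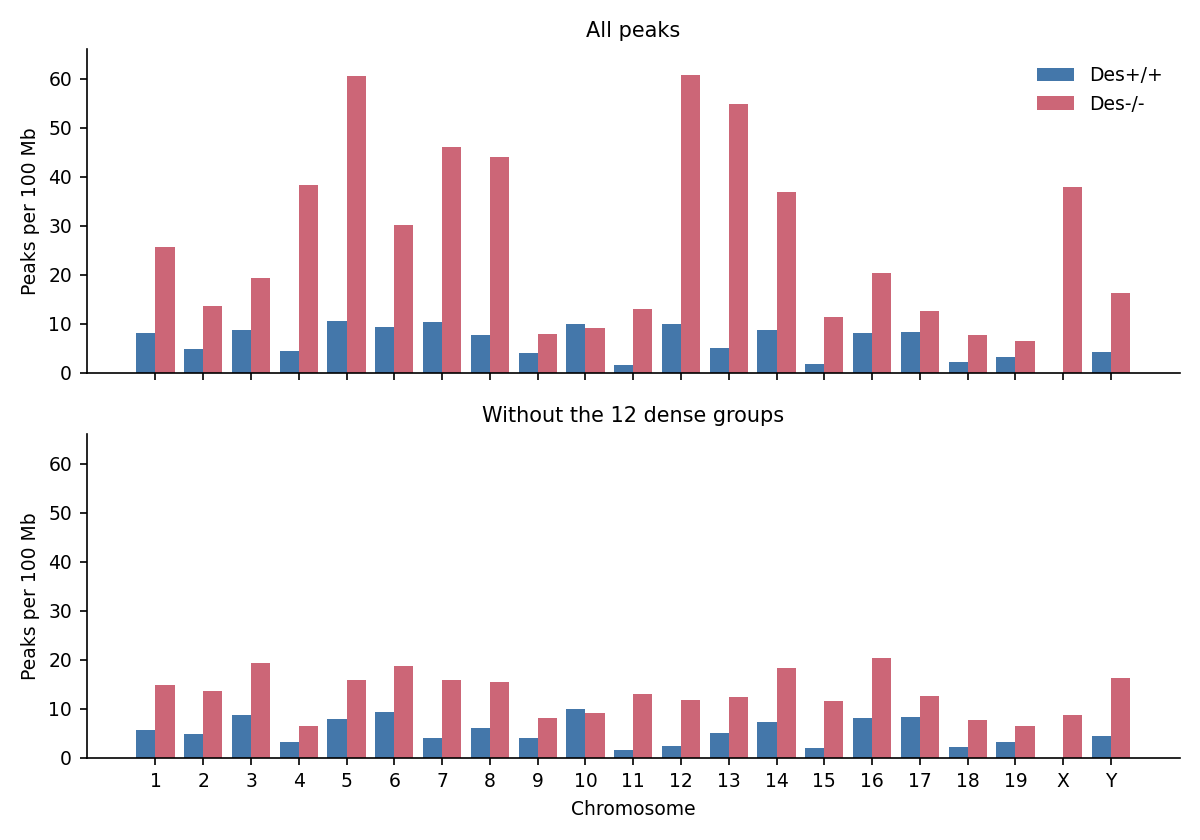
Lamin A/C peaks per 100 Mb of each chromosome (horizontal axis) in the Des+/+ and Des-/- lists at rest, 1 library each. The upper panel counts all 176 and 785 peaks and the lower panel leaves out the 12 dense groups, where the tall Des-/- bars of chromosomes 5, 12 and 13 come down to 15.8, 11.7 and 12.5.

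Chromosome X carried 0 of the 176 Des+/+ peaks and 65 of the 785 Des-/- peaks. The X share was 8.28% in Des-/- (95% Wilson interval 6.55 to 10.4%), while a count of 0 among 176 has an upper limit of 2.14%. Such intervals here and below cover counting error only. They treat peaks as independent, although many lay close together in groups, so they may be too narrow. The X peaks of Des-/- were 8 to 22 reads high with a median of 9, and 24 of them passed the p-value limit used above, against 0 in Des+/+. Of the 65, 50 lay in a pair of dense groups of Btbd35f genes, a multicopy family, and 15 lay elsewhere, 5 of them in a smaller group near Zxda and Spin4. The highest of these 15 X peaks was in an intron of Mid1, a ubiquitin ligase gene at the edge of the pseudoautosomal region (height 22, input 7), followed by a peak near Usp51 (height 16, input 3). Both lamin A/C lists of swum mice had X peaks, 8.07% of the Des+/+ and 12.8% of the Des-/- list. The Des+/+ list at rest was thus the only 1 of the 4 without X peaks, and since it had none there, the p-value it kept on X cannot be seen. The sex of the pooled mice is not given, so the part of sex in the X share was not tested.

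The lists had similar shares of most annotation classes, the exon class being the furthest apart. Peaks between genes made up 62.5% of the Des+/+ list (110 peaks, 55.2 to 69.3%) and 58.0% of the Des-/- list (455 peaks), and introns held 27.3% and 24.8%. The exon class held 6 Des+/+ peaks (3.41%, 1.57 to 7.24%) and 79 Des-/- peaks (10.1%, 8.15 to 12.4%), from 1 library each. By overlap with any annotated exon the shares were closer, 9.66% (17 peaks) and 14.8% (116 peaks). The promoter class held 4.55% and 4.59%. Within 3 kb of a transcription start lay 23 Des+/+ peaks (13.1%, 8.87 to 18.8%) and 78 Des-/- peaks (9.94%, 8.03 to 12.2%), with overlapping intervals. Over 100 kb from any start lay 33.5% and 31.6%, and over 1 Mb 4 and 12 peaks. Among the 166 highest Des-/- peaks (12 reads or more) the share over 100 kb was lower, 15.7%, and that within 3 kb was 17.5%. The median distance to the nearest start was 32.9 kb in Des+/+ and 39.4 kb in Des-/-. For H3K27Ac at rest that median was 0 in both genotypes, so lamin A/C peaks of both genotypes lay far from starts by comparison.

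**Figure D2:**
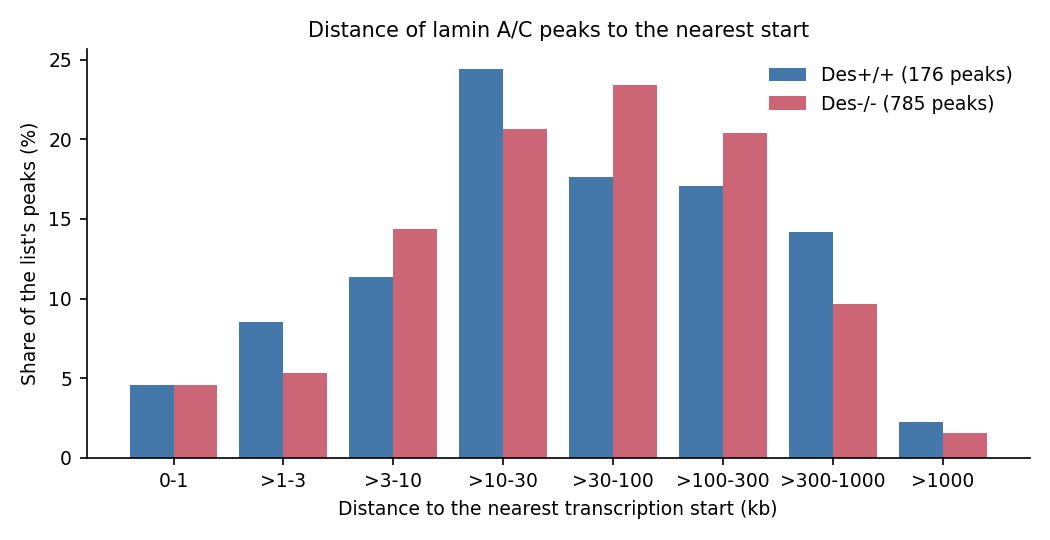
Share of each lamin A/C list at rest (vertical axis, percent of 176 Des+/+ or 785 Des-/- peaks) by distance to the nearest transcription start in kb. Both lists spread over the whole range of distances, with medians of 32.9 kb in Des+/+ and 39.4 kb in Des-/-.

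Peaks of the Des-/- list were strongly clustered and those of the Des+/+ list were mostly isolated. Another peak of the same list lay within 1 Mb for 55 Des+/+ peaks (31.2%, 24.9 to 38.4%) and 572 Des-/- peaks (72.9%, 69.6 to 75.9%). A longer list has closer neighbours, so the 166 highest Des-/- peaks (12 reads or more) were also taken as a list of nearly equal length, and 75.3% of these had a neighbour, although 64 of the 166 lay in a single group on chromosome 5. The median gap to the next peak was 3830 kb in Des+/+, 20.8 kb in Des-/- and 6.67 kb among the 166 highest. When peaks were chained at gaps of up to 1 Mb, 5 groups of 3 or more formed in Des+/+ (31 peaks) and 32 in Des-/- (502 peaks, 63.9% of the list).

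The 12 Des-/- groups of 10 or more peaks, a limit chosen after the values were seen, held 420 Des-/- peaks (53.5%) and 33 Des+/+ peaks (18.8%). The same stretches held 37.7% of the Des+/+ and 53.8% of the Des-/- list after swimming. The densest was the Speer4 cluster on chromosome 5 (14903407 to 15709560), a family of spermatogenesis-associated glutamate-rich genes, with 68 Des-/- and 4 Des+/+ peaks. Its Des-/- peaks were 10 to 26 reads high with a median of 16, over inputs of 3 to 9 with a median of 6. This group thus had the highest median height, and the highest median input, of the 12. The group over the variable segments of the immunoglobulin heavy chain (Ighv) on chromosome 12 (113644728 to 116008376) held 59 Des-/- peaks, 8 to 18 reads high over a median input of 2, and 9 Des+/+ peaks, 8 to 14 reads high. Of 212 annotated genes in it 173 were Ighv segments. By nearest start 42 Des-/- and 7 Des+/+ peaks were assigned to Mir6388, a microRNA gene of the region, and 0 to an Ighv segment.

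**Figure D3:**
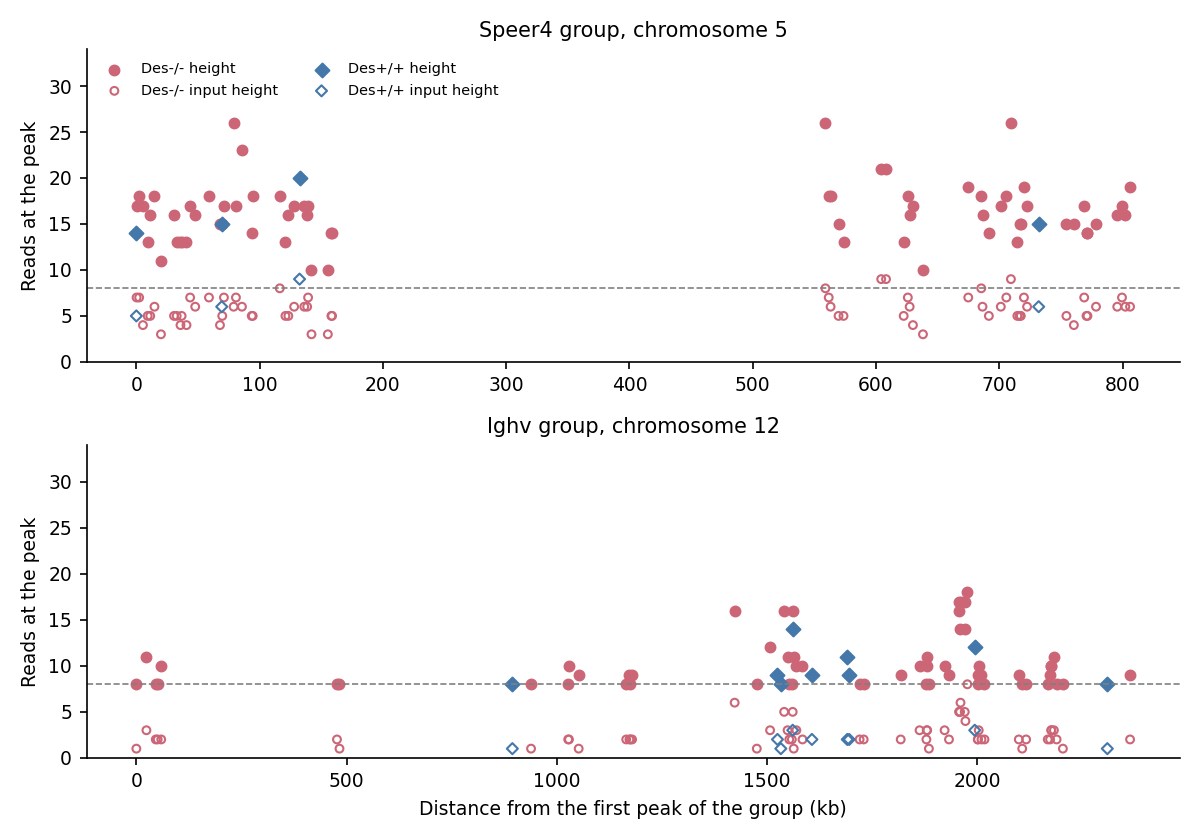
Height (filled symbols) and input height (open symbols), in reads, of each Des-/- and Des+/+ peak along the Speer4 group and the Ighv group, against distance from the first peak in kb. The dashed line marks 8 reads, the lowest height in the lists. In the Speer4 group Des-/- heights run from 10 to 26 over inputs of 3 to 9, and in the Ighv group from 8 to 18 over a median input of 2.

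The remaining groups lay over a range of gene families. The chromosome 4 group (145407616 to 147811817), with 17 Zfp zinc finger genes, a class of DNA-binding repressors, held 50 Des-/- and 2 Des+/+ peaks. The Vmn2r group on chromosome 7 (7357496 to 10065145), a family of pheromone receptors of the vomeronasal organ, held 44 and 9 peaks over 34 Vmn2r genes and pseudogenes. The Potefam3 group on chromosome 8 held 37 and 2, the group around 1700001F09Rik and Gm10377 on chromosome 14 held 23 and 2, and the group of Sp110 and Sp140, interferon-induced nuclear body genes on chromosome 1, held 21 and 5. Without any Des+/+ peak were the Zfp997/Zfp998 group (29 Des-/- peaks) and the Prl2c group (22 peaks) on chromosome 13, the Klra group on chromosome 6 (17 peaks over 11 genes of the Ly49 receptors of natural killer cells) and both Btbd35f groups on chromosome X (33 and 17 peaks).

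**Figure D4:**
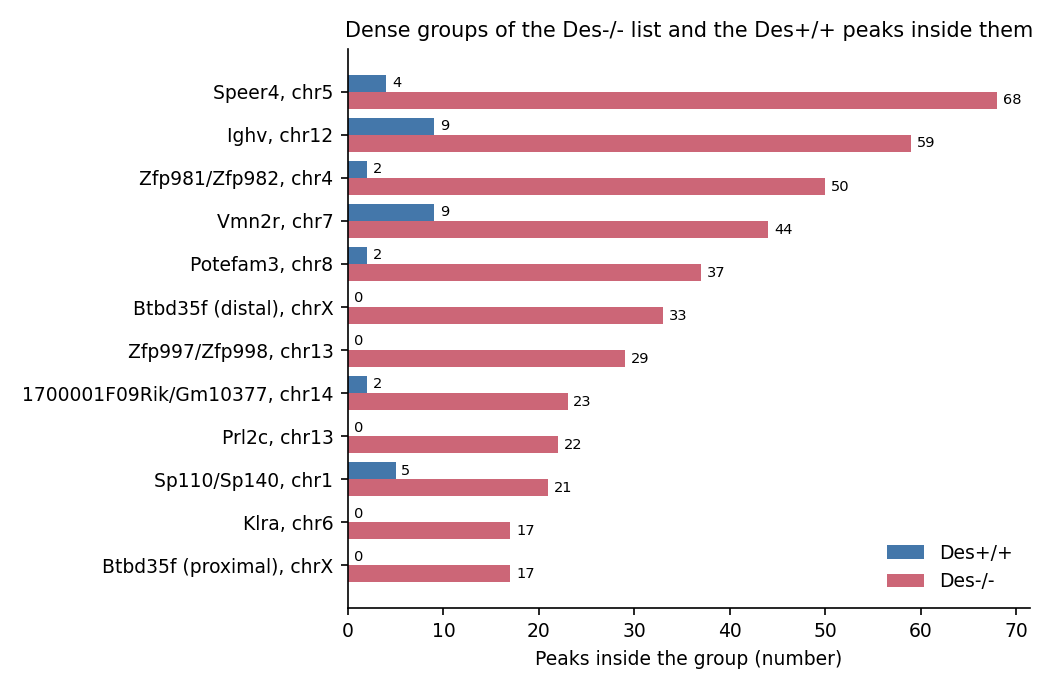
Number of Des-/- and Des+/+ lamin A/C peaks at rest (horizontal axis) inside each of the 12 dense groups of the Des-/- list, named by the gene family inside. Des-/- counts run from 68 in the Speer4 group to 17, Des+/+ counts from 9 to 0, with 0 in 5 groups. The groups were chosen by their Des-/- counts, so the lower Des+/+ counts are no independent result.

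Smaller groups repeated the pattern. Des-/- had 20 further groups of 3 to 9 peaks (82 peaks), of which 7 also held a Des+/+ peak. They included a group on chromosome 16 with 6 Des-/- peaks and 1 Des+/+ peak, to which the olfactory receptor gene Or1f19 was nearest. The highest Des-/- peak of that group lay far from the gene, at -477570 bp from its start. Others were the chromosome Y end with Erdr1x and G530011O06Rik (9 and 1 peaks), and the group of Asb5 and Gpm6a, a brain gene, on chromosome 8 (4 and 0). The only Des+/+ group outside the 12 was at Esp34, an exocrine-gland-secreting peptide gene on chromosome 17, with 3 peaks of 8, 9 and 10 reads and 0 Des-/- peaks. Outside the dense groups 14.7% of Des+/+ and 41.6% of Des-/- peaks still had a neighbour within 1 Mb.

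Repeated sequence underlay a larger share of the Des-/- list. A window was called repeated when none of its 100 31-mers occurred in only 1 place in the reference. This held for 25.0% of Des+/+ peaks (19.2 to 31.9%) and 39.5% of Des-/- peaks (36.1 to 43.0%), against 1.1% and 1.45% of H3K27Ac peaks. A 31-mer found again within 1 Mb, the mark of a local array, was present in 51.1% of Des+/+ and 73.6% of Des-/- windows. Inside the 12 groups the lists were close in this respect (97% and 92.6%), and outside them the shares were 40.6% (32.9 to 48.8%) and 51.8% (46.7 to 56.9%). The groups themselves differed. The median share of 31-mers found once in Des-/- windows was 0% in the Speer4 group, 66% in the Ighv group and 70% in the Klra group. The median copy number of the 31-mers was 1.5 in Des+/+ and 4 in Des-/-. Base composition was alike, with a median GC content of 42.8% and 42.4%, both below that of H3K27Ac peaks (55.0% and 54.9%). The median fold over input of Des-/- peaks was 3.0 in the groups and 4.5 outside, and the median input was 2 reads and 1 read. By this ratio peaks in the groups rose less far above their input than those outside. In reads they were not lower, with a median height of 9.5 in the groups and 8 outside. The part of copy number, of strain background and of input in the difference between the lists was not tested.

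**Figure D5:**
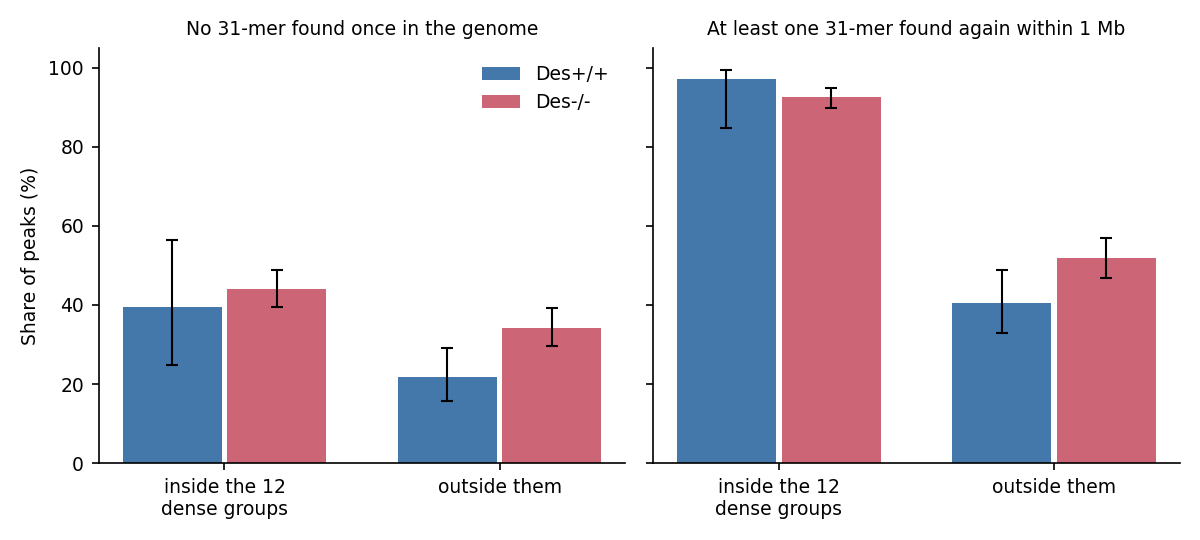
Share of peak windows (vertical axis, percent) with no 31-mer that is unique in the reference (left) and with a 31-mer found again within 1 Mb (right), inside and outside the 12 dense groups, for Des+/+ and Des-/-. Bars show 95% Wilson intervals for counting error only. Inside the groups 97% and 92.6% of windows have a copy within 1 Mb, against 40.6% and 51.8% outside.

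Few peaks were found in both lists. Of the Des+/+ peaks 158 had no overlapping Des-/- peak (89.8%), and of the Des-/- peaks 767 had no overlapping Des+/+ peak (97.7%). For H3K27Ac at rest these shares were 14.5% and 19.7%. A peak just under the height limit is absent from a list, so the lack of a partner does not show the lack of signal. Partners were more frequent among high peaks, with 4 of the 8 Des+/+ peaks of 20 reads or more against 5 of the 104 at 8 reads. Measured by neighbourhood, 44.9% of Des+/+ peaks had a Des-/- peak within 1 Mb, and 49.6% of Des-/- peaks had a Des+/+ peak. This order turned without the 12 dense groups (30.8% and 22.7%) and within 100 kb (33.5% and 28.7%). Nearest genes overlapped to a small extent, with 55 genes in both lists, 33.7% of the 163 Des+/+ genes and 13.8% of the 399 Des-/- genes.

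The 18 shared peaks were higher in Des-/- in 16 cases, with a median ratio of 1.19 and a range from 0.846 to 2.1. The exceptions were near F11r, encoding junctional adhesion molecule A (39 reads in Des+/+ and 33 in Des-/-), and near Gapt (10 and 9). The highest were a pair in introns of Def8 on chromosome 8, with 74 and 83 reads in Des+/+ and 87 and 92 in Des-/-, over an input of 1, and the next was in an intron of Zfp981 (50 and 58). Peaks near Wasf2 (14 and 16) and in an exon of Chd9, a chromatin remodeller (14 and 17), were also shared. These 5 peaks and that near F11r were in both lists of swum mice as well, as was 1 of 3 shared peaks on chromosome Y, near Rbmyf9 (11 and 21). The others on Y were near Gm20747 (10 and 21) and Gm20871 (11 and 15). The largest ratios were those near Gm20747 (2.1) and Rbmyf9 (1.91), followed by 1.64 over Myh6. The part of the sex of the pooled mice in the ratios on Y was not tested. Most shared peaks lay in sequence with further copies in the genome. Windows with most 31-base runs found once made up 11.1% of shared and 54.4% of unshared Des+/+ peaks, and 22.2% and 33.2% in Des-/-. The Des+/+ windows at Def8, Wasf2 and Chd9 held no such run found once. A shared peak of this kind need not mark the named gene.

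Heart genes appeared among the peaks through their exons. The shared peak assigned to Mir208a lay over exon 33 of 39 of its host gene Myh6, the alpha myosin heavy chain of the heart, and was 11 reads high in Des+/+ (input 3) and 18 in Des-/- (input 2). Its Des-/- window is printed below because part of it is the same in Myh7, the neighbouring beta myosin heavy chain gene. It lies at chr14:54947076-54947205, is given on the plus strand, and the capitals mark the 75 bases inside a 31-mer shared with Myh7.
Myh6 exon 33 peak, Des-/-: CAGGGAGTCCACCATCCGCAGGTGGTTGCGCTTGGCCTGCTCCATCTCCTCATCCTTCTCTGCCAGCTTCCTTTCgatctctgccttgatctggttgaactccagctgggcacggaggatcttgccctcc
Another shared peak, assigned to Anapc7, lay in the 3' untranslated region of Atp2a2, the calcium pump of the sarcoplasmic reticulum (8 and 12 reads). The list of 42 contraction genes had 0 genes with a peak by nearest start in Des+/+ and 6 in Des-/-, against 0.539% and 1.35% of 21896 protein-coding genes. The 6 were Myh6, Myh7, the thin filament genes Actc1 (height 13), Tnnt2 (10) and Tnnc1 (9), and Tcap (9), which anchors titin at the Z-disc. Counting peaks inside the bodies of contraction, ion handling and mitochondrial genes, Des-/- had 10 of its 785 peaks and Des+/+ 2 of its 176. That was a similar small share of each list. All of them lay over an exon, and the 10 Des-/- peaks were 8 to 18 reads high over inputs of 1 to 3. Of these 10, 6 overlapped a peak of the swum Des+/+ list and 0 a peak of the swum Des-/- list. At rest 2 of the 10, those in Myh6 exon 33 and in Atp2a2, also had a Des+/+ partner. Other Des-/- peaks over exons of highly expressed genes were at Mb, the muscle oxygen store myoglobin (16), Actb (9), Eef1a1 (9), Sparc (8) and Hspa5 (8), a choice made after their values were seen.

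Beyond contraction, most cardiac lists were nearly empty. No gene of the calcium and ion channel (30 genes), endothelial (10), fibroblast (10) or leukocyte (10) list had a peak by nearest start in either genotype. Of 39 mitochondrial genes Atp5b, a subunit of ATP synthase that the deposited annotation names Atp5f1b, had a Des-/- peak at its promoter (8 reads) and no gene had a Des+/+ peak. Of 18 lamina and LINC complex genes, Syne1, which encodes the nesprin that reaches from the nuclear envelope to the cytoskeleton, had an intronic Des+/+ peak (8 reads). Lbr, the lamin B receptor, was the nearest gene to a Des-/- peak 77 kb from its start (10 reads). That peak lay in an intron of another gene, Dnah14, and no 31-mer of its window was found once in the genome. Of 41 genes of cardiac development and Notch signalling, Tbx18 had a Des+/+ peak (9) and Isl1 a Des-/- peak (8), both over 100 kb from the start. A list of 73 long neuronal adhesion and synapse genes, of a type often found in lamina-associated domains, was also counted. It had 7 genes with a peak in Des+/+ (9.59%) and 17 in Des-/- (23.3%), against 0.539% and 1.35% of all protein-coding genes. Both the list and all genes thus had a higher share in the longer Des-/- list. The part of gene length in these shares was not tested. Genes with a peak in both were Csmd3, Ctnna2, Nrxn3, Robo2, Slitrk1 and Slitrk5, with a single Des+/+ peak each at 8 or 9 reads. The tallest in Des-/- were near Cntnap5a (20, input 9), in Nrxn3 (17, input 4) and near Csmd3 (13, input 4). This list had the most genes with a peak in both genotypes.

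Gene families showed the same arrays. Vomeronasal receptors were nearest to 9 Des+/+ (5.11%) and 48 Des-/- peaks (6.11%), and zinc finger genes to 3 (1.7%) and 49 (6.24%), 43 of the latter in dense groups. Olfactory receptors, which are numerous and silent in the heart, were nearest to 3 (1.7%) and 11 (1.4%). Keratins and serpins were nearest to 0 peaks in both lists. At least 3 peaks were assigned to 2 genes in Des+/+, Mir6388 (7) and Esp34 (3), and to 65 genes in Des-/- (410 peaks). After Mir6388 (42) the genes with most Des-/- peaks were Btbd35f10 (21), Potefam3e (13), Gm21190 and Zfp982 (12 each), and Gm17019, Gm7762 and Prl2c3 (11 each). The zinc finger genes were thus the named family whose share of the list differed most.

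The highest peaks without a partner lay partly in the Speer4 group in both lists. In Des+/+ the highest was near 4930517M08Rik on chromosome 17 (43 reads over an input of 3) and was in both lists of swum mice. Its window is shown because it is a tandem repeat of 5 bases, here in capitals wherever the unit CCATT is intact, at chr17:4626278-4626407 on the plus strand.
4930517M08Rik peak, Des+/+: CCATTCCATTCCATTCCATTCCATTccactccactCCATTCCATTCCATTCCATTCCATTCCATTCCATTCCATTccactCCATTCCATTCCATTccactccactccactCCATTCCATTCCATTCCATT
The unit filled 76.9% of the window, in 20 copies. Searched on both strands, 3 CCATT units in a row occurred in 1 of 176 Des+/+ windows (0.568%) and in 0 of 785 Des-/- windows. The next Des+/+ peaks were at the start of 2610005L07Rik in the Potefam3 group (26 reads over 5) and near Gm17019 in the Speer4 group and near Ccr1, a chemokine receptor gene (20 reads over 9 each). In Des-/- the highest were at Sfi1, a centrosome gene (28 over 7), and then near Gm10354 and Gm21190 and at Speer4d in the Speer4 group (26 each). Among the highest Des-/- peaks outside the groups were those assigned to Or1f19 and Erdr1x (25 over 9 each) and to Mid1 (22 over 7). The peak assigned to Or1f19 lay far from that gene, at -477570 bp from its start. Also among them were peaks at Sspn, the dystrophin-complex gene sarcospan (21 over 6), and at the start of the long non-coding RNA Malat1 (21 over 7). The Malat1 peak lay in sequence unique in the genome and in both lists of swum mice. The 10 highest unshared Des-/- peaks all stood over inputs of 6 to 9 reads, near the limit for removal.

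Near transcription starts few peaks were high. After the Def8 peak (74 reads), 2610005L07Rik and Gm17019, the Des+/+ peaks within 3 kb of a start were 12 reads high or lower, and included Acbd4 (11), Haspin, a histone H3 kinase gene (10), and Cep135, a centriole gene (9), each unshared and at or within 100 bp of the start. The Des-/- peaks near starts were led, after Def8 (87), by Sfi1 (28), Sspn and Malat1 (21 each) and genes of the Speer4 group. Overlap with H3K27Ac peaks of the same genotype was rare, 3 Des+/+ peaks (1.7%, 0.581 to 4.89%) and 25 Des-/- peaks (3.18%, 2.17 to 4.66%). The Des+/+ overlaps were at 2610005L07Rik, Cep135 and Zfta, and those of Des-/- included Malat1, Tcap, Actb, Hspa5 and 3 peaks near Ezh2. Lamin A/C peaks of both genotypes were therefore for the most part outside the acetylated regions. The overlap of regions placed at random was not computed, so these shares do not show whether lamin A/C peaks avoided acetylated regions. Peaks overlapping any list of swum mice made up a like share of both, 11.9% in Des+/+ and 12.2% in Des-/-.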

How the data were processed

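Lamin A/C and H3K27Ac ChIP-seq was performed on adult cardiomyocytes with 1 library per genotype and condition, in 16 samples of which 8 gave peak lists. Per the submitters' processing notes, reads were aligned to GRCm38 (mm10) with Bowtie2 2.4.4, handled with SAMtools 1.13 and peaks were annotated with ChIPseeker 1.36.0. Peaks were called in each library against its input with a script of the authors' laboratory, which was not read here. The deposited height and input height are coverage signals in reads. The deposited fold column is the ratio of height plus 1 to input plus 1, the deposited p-value is the upper Poisson tail beyond the height, with the input height as its mean, and the deposited distance to a start is a score column in bp set by the authors' annotation. The depth of each library is given only as 1 rounded figure common to all samples, in the methods.

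Peaks with an input height of 10 or more and peaks assigned to Gata4, Neil2, Mef2c or Tbx5 were removed. Peaks sharing at least 1 bp were called shared. Chains of peaks were made at gaps of up to 1 Mb. Exons came from GENCODE M21, and copy number was counted for each 31-mer of a 130 bp window around the summit. Intervals of shares are 95% Wilson intervals, take in counting error alone and treat peaks as independent. No test between genotypes was made, because each had 1 library. Named genes were the nearest genes of the 10 highest unshared peaks and the 10 highest peaks within 3 kb of a start in each list, of every shared peak, of genes with 3 or more peaks, of the groups with most peaks, and genes of the lists. The members and lists were chosen with earlier results of these data known. Scripts ran in Python 3.11.15 with numpy 2.4.6, pandas 2.3.3, scipy 1.17.1, statsmodels 0.14.6 and numba 0.67.0, and were tested on simulated data. Alternatives tried were other limits of height, input, fold, false discovery rate and distance.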

Additional observations from a re-analysis of the deposited data

Results flagged for a closer look

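The number of lamin A/C peaks differed between genotypes in opposite directions in the resting and the swum state. At rest there were 4.46 Des-/- peaks for each Des+/+ peak. After swimming, with the same peaks removed, the Des+/+ list held 607 peaks and the Des-/- list 507, 0.835 for each. The difference between these ratios was not tested, since each rests on 1 library per genotype, and the exact depth of each library is not in the lists.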

How the results depend on the processing

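Values are the Des-/- share minus the Des+/+ share in percentage points, and for the number of peaks the ratio of Des-/- to Des+/+. Of the settings planned, 54 values stayed close to the reported value, 10 moved beyond its counting interval with the same sign and 6 beyond it with the opposite sign. With 3 settings added after seeing the data these numbers were 19, 6 and 2. Keeping only the 166 highest Des-/- peaks set the ratio of peak numbers to 0.943 by construction, and changed the unshared share to -0.479, the share within 3 kb of a start to 4.4, the share over 100 kb from a start to -17.9, the H3K27Ac overlap to 6.73, the X share to 3.61 and the share near a peak of the other list to 49.2. A false discovery rate under 0.0001 left 22 and 91 peaks and gave an unshared share of 34.5, a share near starts of -9.39, an X share of 31.9 and a share near the other list of -39.2. A minimum height of 10 reads gave a ratio of 7.5, an unshared share of 26.0, an intergenic share of -13.8 and a share near the other list of -5.83. A distance of 100 kb for the last gave -4.86. Of the settings added, the common p-value limit gave a ratio of 2.85, a neighbour share of 25.8 and a share near the other list of -10.6, and leaving out the 12 dense groups gave 2.55, 27 and -8.03, with an H3K27Ac overlap of 4.08 and an X share of 4.11. Leaving out peaks that share sequence with the Def8 peaks changed no direction. The neighbour share kept its direction in every setting tried. For the X share no other direction was possible, since the Des+/+ list held 0 X peaks in every setting. The share near a peak of the other list had no stable direction. The cause of these shifts was not tested. No paired analysis was possible because each genotype had 1 library at rest and the labels give no replicate numbers. No replicate could be left out for the same reason. With a lowest height of 8 reads, a site of slightly weaker signal is missing from a list, and the exact depth of each library is not in the lists.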
